A study of Homo sapiens with 9 samples.

Results

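Homologous recombination, the Fanconi anaemia pathway and mismatch repair were described here through 33 genes chosen by symbol, out of 21619 genes in the count tables, and all 33 were found. The RNA came from 9 xenograft tumours of MDA-MB-231, an established human triple-negative breast cancer line, whose cells carried the ribosomal protein L10a fused to EGFP, a green fluorescent protein. The tagged cells were injected into the mammary fat pad of mice, either alone or mixed 1 to 1 with mesenchymal stem cells (MSCs) from human bone marrow, and tumours were taken after 3 weeks. There were 5 tumours with MSC (numbered 1, 6, 7, 10 and 15 in the labels) and 4 without (9, 11, 12 and 13), each from a different mouse, and values are given in that order. The sources used here do not give the strain or age of the mice. In each tumour, polysomes of the tagged cells were pulled down from whole-tumour lysate with an antibody to the fluorescent protein, and the bound polyadenylated RNA was sequenced. The values are therefore levels of polysome-associated RNA, and no library of total RNA was used here, so RNA abundance and ribosome association cannot be told apart. Nor can a smaller share of cells in the cell cycle phases that express a gene be told apart from less RNA per cell in such bulk samples.

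Homologous recombination repairs a broken chromosome by copying the sister chromatid. The kinases ATM and ATR sense the damage and signal through CHEK2 and CHEK1, nucleases cut back the broken ends, and the BRCA proteins promote pairing of the exposed strand with the intact copy. The Fanconi pathway unhooks crosslinks between DNA strands through a core ubiquitin ligase that marks the FANCD2-FANCI pair, and mismatch repair corrects base mispairs left by replication. Many of these genes are transcribed in late G1 and S phase through E2F factors, and inherited loss of several predisposes to breast, ovarian or colon cancer.

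The 5 libraries with MSC held 29749909 to 50639082 counts in genes, and the 4 without held 24616792 to 65275226. CPM are gene counts scaled to a common library size. All 10 markers of the line were present, from EGFR (19.2 ± 2.18 CPM with MSC and 10.2 ± 2.82 without) to VIM, the intermediate filament of mesenchymal cells (8976 ± 2114 CPM with MSC and 7379.9 ± 589 without, mean ± SD, n = 5 and n = 4). Of these, CD44 (0.61 ± 0.13, edgeR adjusted p = 0.00865), EGFR (0.90 ± 0.17, edgeR adjusted p = 0.00498) and AXL (0.53 ± 0.12, edgeR adjusted p = 0.0137) were higher with MSC, as log2 change ± SE, and S100A4 was lower (-0.52 ± 0.13, edgeR adjusted p = 0.0242). Of 7 luminal markers, ESR1, PGR, FOXA1 and CDH1 were at most 0.208 CPM in any tumour, while ERBB2 had 28.02 ± 5.34 CPM with MSC and 22.6 ± 3.60 without, EPCAM 10.6 ± 2.58 CPM with MSC and 10.1 ± 0.889 without and GATA3 4.40 ± 0.617 CPM with MSC and 6.77 ± 2.13 without. The summed level of 20 fibroblast and MSC markers was 635 to 869.9 CPM with MSC and 552 to 708 without. Most of that sum was NT5E, 461 to 675 CPM over the 9 tumours. Of 13 tested, 2 of these markers were higher with MSC and 0 lower: COL1A2, 1.21 to 8.45 CPM with MSC and 0.528 to 0.699 without (log2 change 2.41 ± 0.51, edgeR adjusted p = 0.0104), and MCAM (0.67 ± 0.13, edgeR adjusted p = 0.00632). Tumour 15 with MSC was the highest for matrix markers of stromal cells: COL1A2 was 8.45 CPM, COL3A1 21.2 CPM and the proteoglycan DCN 18.9 CPM there, against means of 0.580, 0.489 and 0.0983 CPM without MSC. The summed level of 12 endothelial markers was 169 to 202 CPM with MSC and 121 to 158 without, most of it ESAM, which was higher with MSC (log2 change 0.59 ± 0.11, edgeR adjusted p = 0.00483). PECAM1, a defining marker of endothelium, was lower, 4.43 ± 0.946 CPM with MSC and 8.50 ± 1.21 without (-0.94 ± 0.19, edgeR adjusted p = 0.00745), and CDH5 and SOX17, which also define it, were at most 0.143 CPM and at 0. For 12 leukocyte markers the sum was 140.1 to 209 CPM with MSC and 96.1 to 139.7 without, most of it CD68 (log2 change 0.52 ± 0.15, edgeR adjusted p = 0.0371), and PTPRC, which defines leukocytes, had a mean of 0.956 ± 1.48 CPM with MSC and 0.0821 ± 0.0986 without. The endothelial and the leukocyte sums did not overlap between the groups. The 6 adipocyte markers summed to 0.264 to 5.17 CPM with MSC and 0.436 to 1.28 without, with tumour 15 highest. Cells of the host were of mouse, while reads were counted on human genes of build hg19, and any removal of mouse reads is not stated. These sums are therefore not amounts of host endothelium, leukocytes or adipocytes. The part of these cell types in the results was not tested.

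Across the 33 genes, 1 was lower with MSC and none was higher. The 1 gene was MSH6, which encodes the mismatch-binding subunit that pairs with another MutS homolog (log2 change -0.43 ± 0.11, edgeR adjusted p = 0.027, all log2 changes being with MSC minus without, ± SE). The test was edgeR's quasi-likelihood test with Benjamini-Hochberg adjustment over all 13458 genes tested, at a threshold of 0.05, and by it 3.60% of all genes tested were lower and 4.18% higher. All 33 genes passed the filter on low counts. A share of 1 in 33 is therefore near the background, and the call says nothing about the genes as a group. The count was 0 without tumour 1 or 10 with MSC or tumour 9 or 12 without, 2 without tumour 11 and 4 without tumour 13. Lower calls over all genes moved too, from 484 to 191 without tumour 1 or 10, 138 without 9 and 94 without 12. They were 299 without tumour 11 and 863 without tumour 13, so these counts of the 33 cannot be read apart from that background. At an unadjusted p under 0.05, 6 of the 33 were lower and 1 was higher, beside 11.8% and 12.8% of all genes tested. DESeq2 called 0 higher and 2 lower, MSH6 and EXO1, beside 859 higher and 778 lower over all genes. Small shifts downward were more frequent than upward ones: 22 of 33 had a negative log2 change, beside 48.9% of all genes tested, and the median was -0.14 beside 0.0085 for all genes. The log2 changes ranged from -0.48 for RAD54B to 0.93 for BARD1. For 22 of the 33 the 95% interval of the fold change lay within 1.5-fold either way, and for 32 within 2-fold, BARD1 being the exception. The 33 levels summed to 642 to 682 CPM with MSC and 692 to 796 without, so the sums did not overlap, but the sum is weighted to the abundant genes CHEK1, NBN, FANCG and MSH6.

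**Figure D1:**
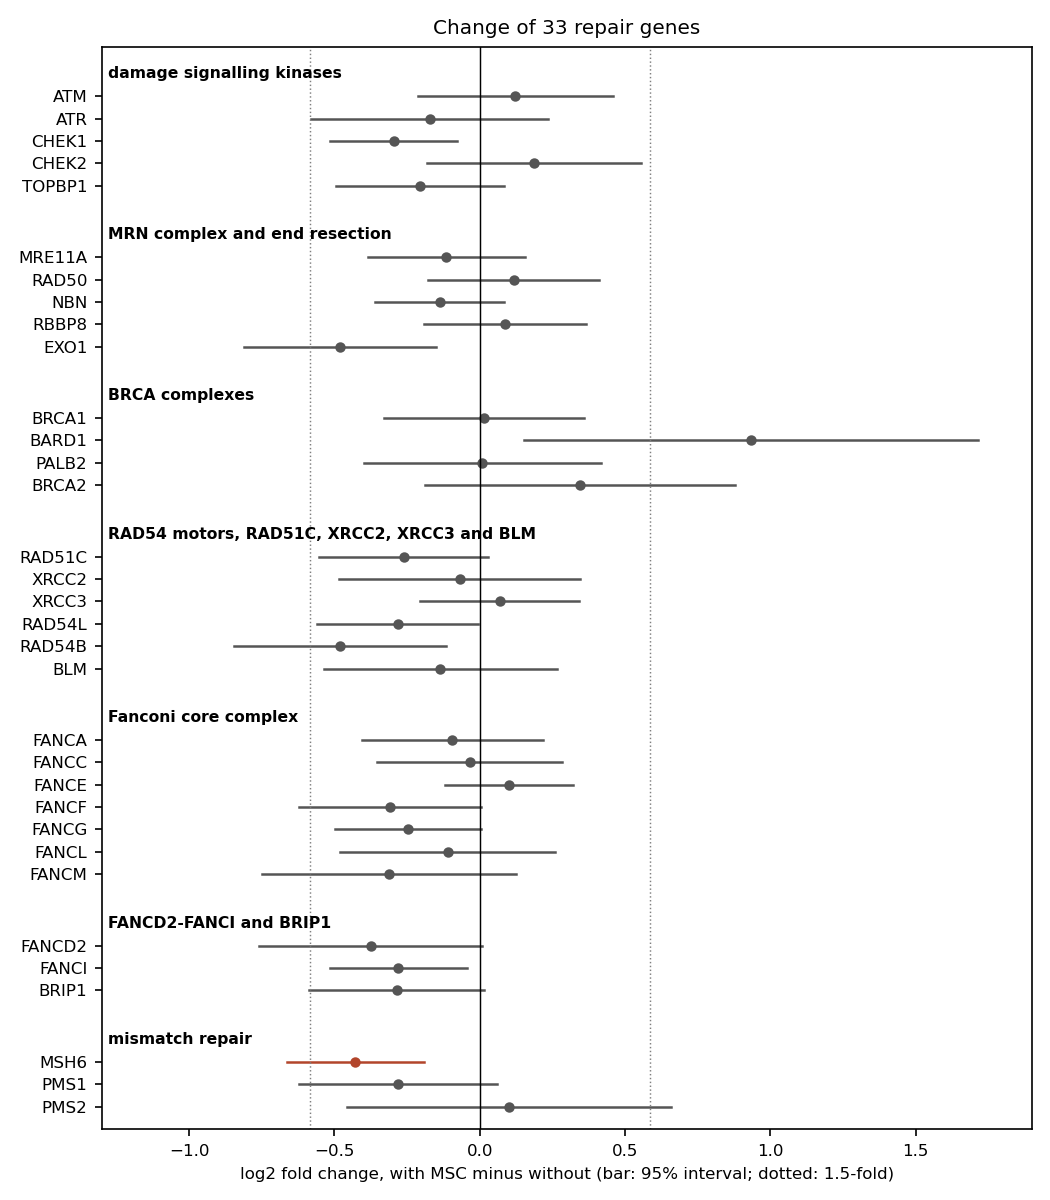
Log2 fold change of each of the 33 genes (x axis, with MSC minus without) with its 95% interval, grouped by role; dotted lines mark 1.5-fold and red marks the gene that passed the test. MSH6 is the only red point, the 4 genes of the BRCA complexes lie at or above 0 (BRCA1 and PALB2 close to 0), and the interval of BARD1 is the widest.

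Promoter sequences were compared because genes of this pathway are known E2F targets. RefSeq promoter windows (GRCh38.p14, 250 bases before to 50 after a transcript start) were found for 30 of the 33 genes, 10 of them with more than 1 start. The E2F letters TTTCCCGC, TTTCGCGC, TTTGCCGC or TTTGGCGC, on either strand, were in the windows of 8 of the 30 (26.7%), beside 3.99% of 27305 genes with a window. They were in 18 of 32 DNA replication genes (56.2%) and 2 of 31 mitosis genes (6.45%). Within the 250 bases before the start, 3 of 30 (10%) held them, beside 3.40% of all. The CHR element TTTGAA, known from genes of mitosis, was in 3 of 30 (10%), beside 18.2% of all genes and 67.7% of the mitosis genes. The NF-Y box CCAAT was in 16 of 30 (53.3%), beside 39.7% of all genes. It was in 62.5% of the replication genes and 77.4% of the mitosis genes. The GC box GGGCGG, which can overlap the E2F letters, was in 24 of 30 (80.0%), beside 48.3% of all genes. Its share was close to that in the replication genes (78.1%) and the mitosis genes (77.4%). All motifs were searched on both strands. The 27305 genes were not limited to the 13458 that passed the filter on low counts, whereas all 33 passed it. For each of the 8 genes with E2F letters the sequence around 1 match is given from 40 bases before that match. It runs 5′ to 3′ on the strand of the gene, with the matching letters in capitals. The 8 genes include the gene that was called (MSH6) and genes with a change near 0 (FANCC) or above it (PMS2). The stretches lie at MSH6 chr2:47783108-47783167 (plus strand), EXO1 chr1:241848168-241848227 (plus strand), FANCD2 chr3:10026395-10026454 (plus strand), TOPBP1 chr3:133661929-133661988 (minus strand), XRCC2 chr7:152676112-152676160 (minus strand), FANCA chr16:89816800-89816859 (minus strand), FANCC chr9:95317736-95317795 (minus strand) and PMS2 chr7:6009130-6009189 (minus strand).
MSH6: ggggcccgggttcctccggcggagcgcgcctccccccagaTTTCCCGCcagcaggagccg
EXO1: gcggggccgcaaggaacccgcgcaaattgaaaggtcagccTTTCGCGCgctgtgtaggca
FANCD2: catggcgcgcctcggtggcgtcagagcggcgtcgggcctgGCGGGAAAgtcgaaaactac
TOPBP1: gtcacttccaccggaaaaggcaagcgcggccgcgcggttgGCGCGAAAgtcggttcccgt
XRCC2: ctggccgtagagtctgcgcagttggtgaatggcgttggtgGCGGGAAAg
FANCA: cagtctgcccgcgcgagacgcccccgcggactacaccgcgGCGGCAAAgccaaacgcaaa
FANCC: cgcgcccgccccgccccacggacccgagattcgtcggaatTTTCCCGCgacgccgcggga
PMS2: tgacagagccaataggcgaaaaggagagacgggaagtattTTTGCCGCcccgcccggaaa

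In MSH6 and FANCC the letters shown are identical, TTTCCCGC in the sense direction. They begin at base 4 after 1 start of MSH6 and 46 bases before 1 start of FANCC. MSH6 has 4 windows and FANCC 2, and a window of FANCC holds 2 matches, of which 1 is shown. FANCD2 and XRCC2 hold the reverse complement of the same letters. The log2 changes of these 4 genes were -0.43, -0.035, -0.38 and -0.069. The median change was -0.15 over the 8 genes with the letters and -0.11 over the 22 without (ranges -0.48 to 0.10 and -0.31 to 0.93), and the ranges overlapped.

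Of the mismatch repair genes, 1 of 3 fell and 2 did not pass the test. MSH6 measured 44.9, 52.8, 59.9, 48.1 and 51.2 CPM with MSC and 72.5, 64.4, 79.7 and 60.3 CPM without. All 5 tumours with MSC were below all 4 without, although tumour 7 with MSC and tumour 13 without nearly met. Groups that did not overlap in this direction were found for 4.87% of all genes tested, and in the opposite direction for 5.13%, and MSH6 was the only one of the 33 in either direction. The means were 51.4 ± 5.65 CPM with MSC and 69.2 ± 8.63 without, a fold of 0.743 (95% interval 0.631 to 0.875). The call did not hold without tumour 1 with MSC (edgeR adjusted p = 0.0796), tumour 10 with MSC (0.0688), tumour 9 without MSC (0.0755) or tumour 12 without MSC (0.113), and it held in the other 5 fits that left out 1 tumour, with log2 changes of -0.36 to -0.49 over the 9. In the reference annotation 16.2% of the exon bases of MSH6 overlap FBXO11 on the opposite strand, and the use of strand in counting is not given. PMS1 and PMS2 encode partners in the endonuclease complexes that follow mismatch recognition. PMS1 had 9.84 ± 1.61 CPM with MSC and 11.9 ± 2.19 without (log2 change -0.28 ± 0.16, edgeR adjusted p = 0.303), and PMS2 had 3.39 ± 0.557 CPM with MSC and 3.15 ± 1.22 without (0.10 ± 0.27, edgeR adjusted p = 0.853). PMS2 has 11 pseudogenes named after it in the annotation, so its count is uncertain.

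The damage-signalling genes had 0 of 5 called. ATM, the kinase activated by double-strand breaks, measured 12.7, 11.6, 16.7, 14.7 and 19.1 CPM with MSC and 14.2, 12.8, 11.4 and 16.5 CPM without. The groups overlapped, although tumours 7 and 15 with MSC lay above every tumour without (log2 change 0.12 ± 0.16, edgeR adjusted p = 0.684, 95% interval of the fold 0.863 to 1.37). CHEK1, the kinase that carries the ATR signal at stalled replication forks, measured 63.01, 70.98, 64.98, 66.7 and 61.6 CPM with MSC and 86.9, 79.6, 88.6 and 66.5 CPM without. Only tumour 13 without MSC lay within the range of the tumours with MSC, and the change was -0.30 ± 0.11, edgeR adjusted p = 0.0855. Without tumour 13 CHEK1 passed (log2 change -0.38, edgeR adjusted p = 0.0200). ATR, the kinase of single-stranded DNA, had 7.25 ± 1.67 CPM with MSC and 8.19 ± 1.67 without (-0.17 ± 0.20, edgeR adjusted p = 0.632). Its activator TOPBP1 had 27.3 ± 4.34 CPM with MSC and 31.5 ± 5.03 without (-0.21 ± 0.14, edgeR adjusted p = 0.376), and CHEK2, the kinase downstream of ATM, had 11.2 ± 2.31 CPM with MSC and 9.83 ± 2.03 without (0.19 ± 0.18, edgeR adjusted p = 0.549). CHEK2 has 4 pseudogenes named after it, so its count is uncertain. ATR shares 16.4% of its exon bases with a gene on the opposite strand.

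Among genes that process broken ends, 0 of 5 were called. EXO1, the nuclease that digests long stretches of the cut strand and also serves mismatch repair, had one of the largest downward differences and measured 21.2, 21.9, 18.4, 18.2 and 18.7 CPM with MSC and 27.3, 23.1, 39.6 and 19.97 CPM without. The tumours with MSC lay close together, while tumour 12 without MSC was well above tumour 13 of the same group, and the groups overlapped. The change of EXO1 was -0.48 ± 0.16, edgeR adjusted p = 0.0658, with a 95% interval of the fold of 0.570 to 0.901. It was -0.26 without tumour 12 (edgeR adjusted p = 0.322). EXO1 passed without tumour 13 (log2 change -0.61, edgeR adjusted p = 0.0144), with no filter on low counts (0.0450) and in DESeq2 (adjusted p = 0.0422). It did not pass in any other fit that left out 1 tumour or in limma-voom (-0.34, adjusted p = 0.161). Nor did it pass with a correction for GC content and length (-0.45, edgeR adjusted p = 0.108). The 3 genes of the MRN complex, which binds the break first, differed by less. MRE11A, its nuclease, had 21.3 ± 2.15 CPM with MSC and 23.1 ± 3.39 without (-0.11 ± 0.13, edgeR adjusted p = 0.627), RAD50, its tethering arm, had 11.8 ± 0.932 CPM with MSC and 10.8 ± 1.04 without (0.12 ± 0.14, edgeR adjusted p = 0.654), and NBN, which recruits ATM, had 64.5 ± 3.45 CPM with MSC and 70.9 ± 9.72 without (-0.14 ± 0.11, edgeR adjusted p = 0.45). RBBP8 (CtIP), which starts resection with MRN, had 45.8 ± 3.37 CPM with MSC and 43.05 ± 9.96 without (0.087 ± 0.13, edgeR adjusted p = 0.731). The annotation has another gene on the same strand that shares 79.7% of the exon bases of RAD50, so the count of RAD50 is uncertain. MRE11A and RBBP8 each have 1 pseudogene named after them there.

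The BRCA complexes had 0 of 4 genes called, and all 4 log2 changes were at or above 0. Those of BRCA1 (0.014) and PALB2 (0.0086) were near 0. They took either sign when 1 tumour was left out (-0.080 to 0.12 and -0.12 to 0.16). BRCA1, the ubiquitin ligase and scaffold of the pathway, measured 11.7, 9.61, 10.3, 12.6 and 14.6 CPM with MSC and 13.1, 9.19, 10.3 and 14.05 CPM without. The groups had nearly the same mean (11.8 ± 1.97 CPM with MSC and 11.6 ± 2.29 without), and the 95% interval of the fold was 0.795 to 1.28 (edgeR adjusted p = 0.972). BRCA2, a mediator of strand exchange, measured 3.51, 2.12, 3.49, 2.86 and 4.08 CPM with MSC and 3.01, 1.93, 2.61 and 2.55 CPM without, and its change was 0.35 ± 0.26, edgeR adjusted p = 0.431. It was the least abundant of the 33 per length. BARD1, the obligate partner of BRCA1, measured 1.87, 1.399, 2.24, 2.24 and 2.91 CPM with MSC and 1.63, 1.24, 0.414 and 1.10 CPM without. Only tumour 6 with MSC fell within the range of the tumours without. The change of BARD1 was the largest upward one of the 33 (0.93 ± 0.37, edgeR adjusted p = 0.126, 95% interval of the fold 1.11 to 3.28), but it rests on few reads: tumour 12 without MSC had 10 counts, and the change was 0.68 at the lowest when 1 tumour was left out. PALB2, which joins BRCA1 to BRCA2, had 7.69 ± 1.47 CPM with MSC and 7.60 ± 1.99 without (0.0086 ± 0.20, edgeR adjusted p = 0.985).

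**Figure D2:**
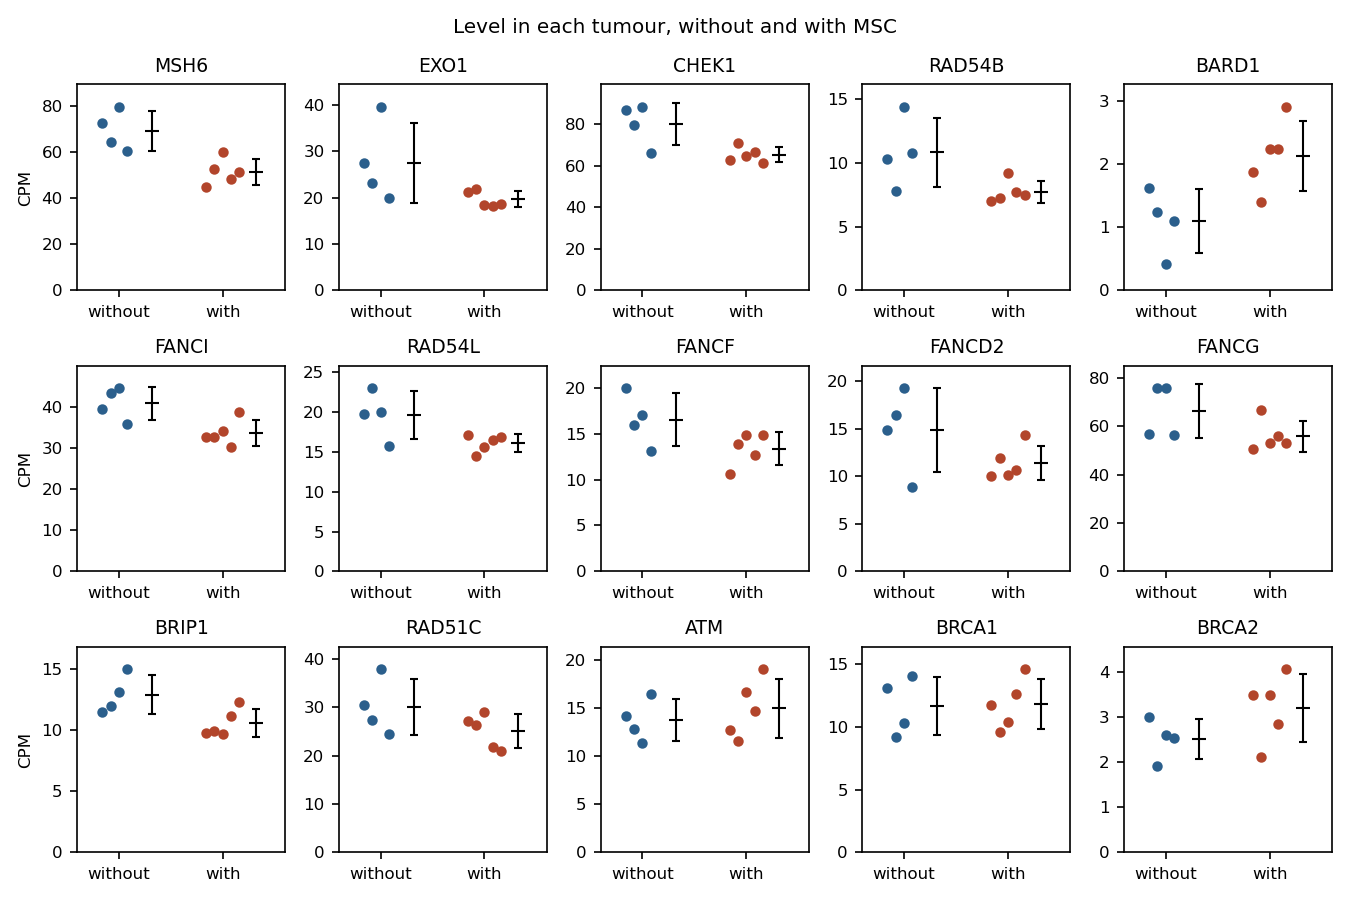
CPM of 15 genes in each tumour (y axis from 0), without MSC in blue (n = 4) and with MSC in red (n = 5); the black bar beside each group is the mean ± SD. In MSH6 every red point lies below every blue one, while in the other 14 genes the groups overlap.

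Of the RAD54 motors, RAD51C, XRCC2, XRCC3 and the helicase BLM, 0 of 6 were called and 5 of 6 had a negative change. RAD54B, a motor protein that moves along DNA during strand exchange, measured 6.98, 7.25, 9.16, 7.72 and 7.48 CPM with MSC and 10.3, 7.78, 14.4 and 10.7 CPM without. Tumour 12 without MSC was the highest and tumour 11 without MSC lay among the tumours with MSC (log2 change -0.48 ± 0.17, edgeR adjusted p = 0.0924). The change of RAD54B was -0.32 at the smallest when 1 tumour was left out, and it passed without tumour 11 (log2 change -0.60, edgeR adjusted p = 0.0491). A second gene on the same strand, FSBP, shares 59.1% of its exon bases, so its count is uncertain. RAD54L, the closest relative of RAD54B, measured 17.2, 14.4, 15.6, 16.5 and 16.8 CPM with MSC and 19.7, 23.05, 19.98 and 15.7 CPM without (log2 change -0.28 ± 0.13, edgeR adjusted p = 0.195). Here only tumour 13 without MSC lay within the range of the tumours with MSC, and 25.1% of the exon bases of RAD54L overlap LRRC41 on the opposite strand. RAD51C, which acts in a complex with XRCC3, measured 27.2, 26.4, 28.98, 21.7 and 21.1 CPM with MSC and 30.5, 27.4, 38.1 and 24.6 CPM without, and the groups overlapped (log2 change -0.26 ± 0.14, edgeR adjusted p = 0.251). XRCC2, which aids strand exchange, had 5.22 ± 0.874 CPM with MSC and 5.46 ± 1.07 without (-0.069 ± 0.20, edgeR adjusted p = 0.867), and XRCC3 had 15.5 ± 1.36 CPM with MSC and 14.7 ± 1.25 without (0.069 ± 0.13, edgeR adjusted p = 0.788). XRCC3 shares 76.7% of its exon bases with KLC1 on the opposite strand, so its count is uncertain. BLM, which dissolves joined chromosomes, had 5.35 ± 0.364 CPM with MSC and 5.85 ± 1.37 without (-0.14 ± 0.19, edgeR adjusted p = 0.709).

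In the Fanconi core complex, the ubiquitin ligase of the pathway, 0 of 7 genes were called, and 6 of 7 had a negative change. FANCG, an adaptor of the core and the most abundant of the 33 per length, measured 50.7, 66.7, 52.9, 55.9 and 52.9 CPM with MSC and 56.8, 75.9, 75.9 and 56.5 CPM without. Tumours 11 and 12 without MSC were above all others and the other 7 overlapped (log2 change -0.25 ± 0.12, edgeR adjusted p = 0.214). FANCF, which holds the core together, measured 10.6, 13.8, 14.8, 12.7 and 14.8 CPM with MSC and 20.02, 15.9, 17.04 and 13.1 CPM without, with tumour 13 without MSC inside the range of the tumours with MSC (log2 change -0.31 ± 0.15, edgeR adjusted p = 0.21). FANCL, the catalytic subunit, had 9.87 ± 2.05 CPM with MSC and 10.6 ± 2.26 without (-0.11 ± 0.18, edgeR adjusted p = 0.746), and FANCM, the translocase that anchors the core to chromatin, had 3.85 ± 0.673 CPM with MSC and 4.78 ± 0.785 without (-0.31 ± 0.21, edgeR adjusted p = 0.373). FANCA had 13.5 ± 2.23 CPM with MSC and 14.4 ± 1.73 without (-0.095 ± 0.15, edgeR adjusted p = 0.739), FANCC 10.9 ± 1.69 CPM with MSC and 11.2 ± 0.952 without (-0.035 ± 0.15, edgeR adjusted p = 0.915) and FANCE 43.1 ± 2.67 CPM with MSC and 40.2 ± 3.56 without (0.10 ± 0.11, edgeR adjusted p = 0.602). FANCE was the 1 core gene with a positive change. FANCA shares 23.6% and FANCL 18.7% of its exon bases with a gene on the opposite strand.

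Downstream of the core, FANCD2, FANCI and BRIP1 all had a negative change, and 0 of 3 were called. FANCD2, the protein that the core marks with ubiquitin, measured 10.1, 11.9, 10.2, 10.7 and 14.4 CPM with MSC and 14.9, 16.5, 19.4 and 8.90 CPM without. Tumour 13 without MSC was the lowest of all 9 tumours, while the other 3 without MSC were above all 5 with MSC. The change was -0.38 ± 0.18, edgeR adjusted p = 0.213, and without tumour 13 FANCD2 passed (log2 change -0.56, edgeR adjusted p = 0.0254). FANCD2 has 1 pseudogene named after it in the annotation. FANCI, which clamps DNA together with FANCD2, measured 32.5, 32.5, 34.1, 30.2 and 38.6 CPM with MSC and 39.5, 43.3, 44.6 and 35.7 CPM without. Tumour 15 with MSC was the only one within the range of the tumours without, and the change of FANCI was -0.28 ± 0.11, edgeR adjusted p = 0.129. BRIP1 (FANCJ), a helicase that binds BRCA1, measured 9.78, 9.90, 9.72, 11.2 and 12.3 CPM with MSC and 11.5, 11.9, 13.1 and 15.03 CPM without. Its groups overlapped through tumour 15 with MSC (log2 change -0.29 ± 0.15, edgeR adjusted p = 0.228). The 3 levels summed to 52.04 to 65.2 CPM with MSC and 59.7 to 77.1 without, and tumour 15 had the highest sum of the tumours with MSC.

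The genes did not move as one block across tumours. On log2(CPM + 0.5), tumour 9 without MSC had 27 of the 33 genes above their mean over the 9 tumours and 0 at their lowest, and tumour 6 with MSC had 7 of 33 above. The other 7 tumours had between 11 and 19 above. Tumour 12 without MSC held the highest value of 9 genes, among them EXO1, RAD54B, FANCD2 and MSH6, and at once the lowest value of 4, among them BARD1, PALB2 and BLM. Tumour 15 with MSC held the highest value of 7 genes, including ATM, BRCA1, BRCA2 and BARD1, and the lowest of 3. In tumour 11 without MSC 7 genes were at their lowest, including BRCA1, BRCA2, RBBP8 and PMS2. The spread between tumours was larger without MSC for 25 of the 33 genes (75.8%), beside 65.0% of all genes tested, with median coefficients of variation of 17.3% without and 13.9% with MSC.

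**Figure D3:**
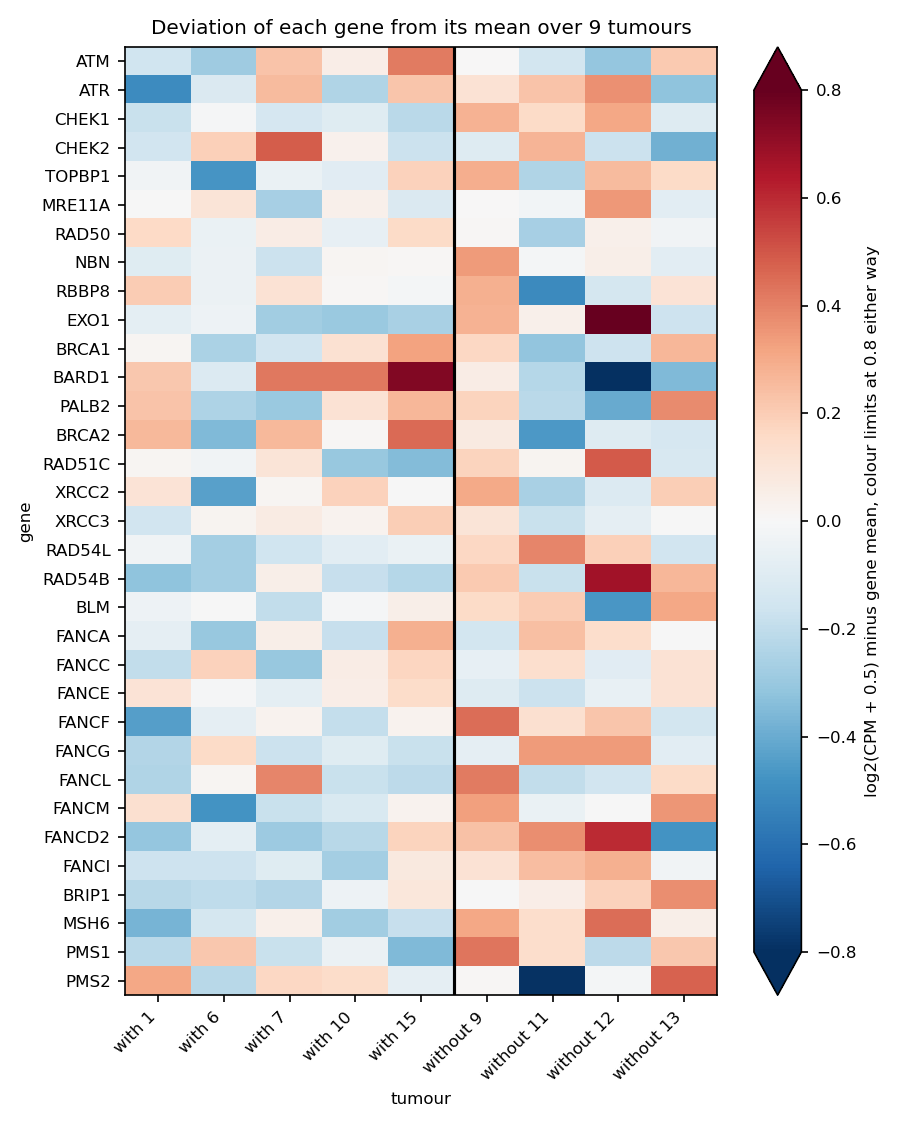
Deviation of each gene (rows) in each tumour (columns, with MSC left of the line) from its own mean over 9 tumours, in log2(CPM + 0.5); red is above and blue below. Tumour 9 without MSC is above the mean for 27 of 33 genes, and tumour 12 without MSC holds both the strongest red (EXO1) and the strongest blue (BARD1).

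Levels of different genes were compared only per length, as mean CPM per kilobase of the longest coding transcript over the 9 tumours. FANCG was the highest at 22.98, followed by CHEK1 at 17.4, FANCE at 16.4, NBN at 14.4 and RBBP8 at 13.5. MSH6 was seventh at 7.93. The lowest were BRCA2 at 0.242, BARD1 at 0.304 and FANCM at 0.599, with ATR at 0.930 next. BRCA1 was at 1.61 and its partner BARD1 was lower, and in no tumour did BARD1 reach the lowest level of BRCA1. Neighbours in this order, such as FANCE and CHEK1 or ATR and BLM, had overlapping ranges over the tumours. With merged exon length in place of the longest transcript, FANCG stayed first and BRCA2 last, and MSH6 was eighth. Levels per length assume even coverage along each transcript, which gene counts cannot show. The annotation used for counting is not stated, so the lengths may differ from those counted.

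**Figure D4:**
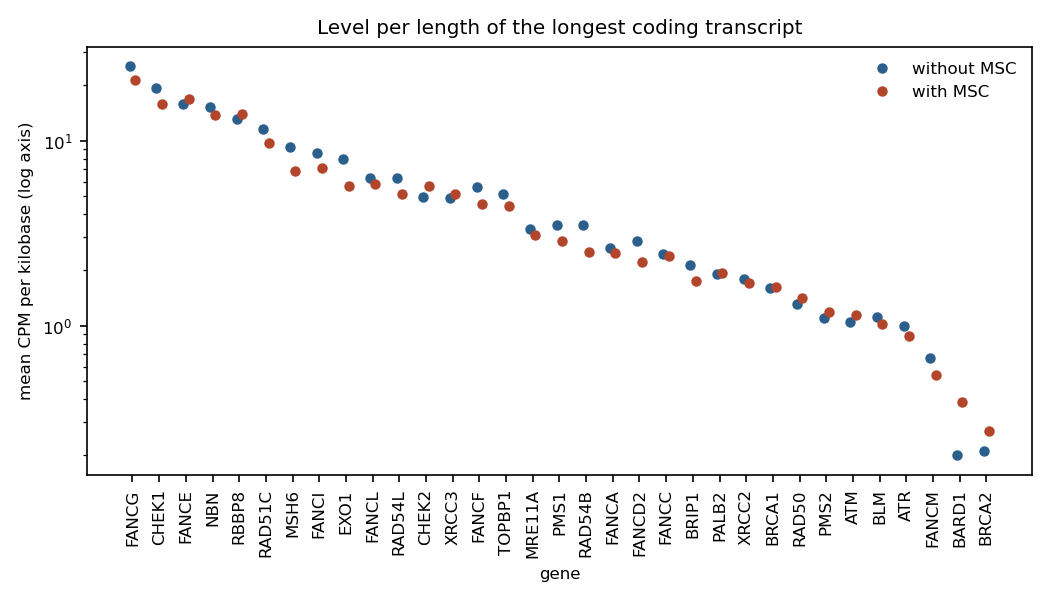
Mean CPM per kilobase of the longest coding transcript (log axis) of the 33 genes, ordered by their mean over all 9 tumours, without MSC in blue and with MSC in red. FANCG is the highest and BRCA2 the lowest, and the pair of points is close for most genes.

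Other repair genes were examined for comparison, from lists chosen with earlier results known. Of 41 tested further genes of homologous recombination and the Fanconi pathway, 3 fell and 0 rose: UBE2T, the enzyme that conjugates ubiquitin for the core complex, went from 90.6 ± 9.06 CPM without MSC to 62.1 ± 10.5 with (-0.54 ± 0.12, edgeR adjusted p = 0.0126). The others were MND1, which acts in meiotic recombination (-0.53 ± 0.12, edgeR adjusted p = 0.0131), and USP1, the enzyme that removes ubiquitin from FANCD2 (-0.37 ± 0.11, edgeR adjusted p = 0.0451). The list median was -0.10. UBE2T and USP1 thus passed, while the tested core genes and their target FANCD2 did not, and the difference between these genes was not tested. The count of 3 was 0 without tumour 12, 1 without tumour 9 and 6 without tumour 13. Of 15 further mismatch repair genes, 1 fell, the clamp loader subunit RFC5 (-0.36 ± 0.11, edgeR adjusted p = 0.0459), and 0 rose (median -0.18). That count was 0 without tumour 1, 6, 9, 10, 12 or 15, with library size as the only scaling, in limma-voom, without robust fitting and with a correction for GC content and length. Of 22 checkpoint clamp and fork protection genes 0 passed (median -0.15), CLSPN, the adaptor of CHEK1, having the smallest p (-0.46 ± 0.15, edgeR adjusted p = 0.0667). At an unadjusted p under 0.05, 6 of these 22 were lower and 0 higher, and DESeq2 called 2 lower. Of 13 end joining genes 0 passed (median -0.11), the smallest p being that of XRCC5, a subunit of the Ku ring (-0.30 ± 0.10, edgeR adjusted p = 0.0687). There 1 was lower at an unadjusted p under 0.05, and DESeq2 called 1 lower.

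Base excision and single-strand break repair had more calls, with 5 of 23 lower and 0 higher (median -0.25). TDP1, which frees trapped topoisomerase from DNA, went from 78.9 ± 8.81 to 56.9 ± 3.69 CPM (-0.47 ± 0.10, edgeR adjusted p = 0.0117). The glycosylases UNG (-0.49 ± 0.11, edgeR adjusted p = 0.0129), NEIL3 (-0.58 ± 0.16, edgeR adjusted p = 0.0293) and TDG (-0.49 ± 0.14, edgeR adjusted p = 0.0332) fell as well, and the break sensor PARP1 was the fifth (-0.45 ± 0.14, edgeR adjusted p = 0.0496). Of 22 nucleotide excision repair genes 2 fell, MNAT1 (-0.39 ± 0.11, edgeR adjusted p = 0.0356) and GTF2H5 (-0.37 ± 0.11, edgeR adjusted p = 0.0443), and 1 rose, the TFIIH helicase ERCC2 (0.48 ± 0.12, edgeR adjusted p = 0.0199), with a median of -0.10. The 2 lower calls were 0 without tumour 6, 9, 10, 11, 12 or 15 and 1 without tumour 1, and the higher call was lost without tumour 1, 9 or 12 and with the correction for GC content and length. Genes of DNA replication and mitosis mark dividing cells. Of 37 DNA replication genes 8 fell and 0 rose (median -0.17), led by GINS4 (-0.63 ± 0.13, edgeR adjusted p = 0.00793), CDC7 (-0.56 ± 0.13, edgeR adjusted p = 0.0136), RRM1 (-0.53 ± 0.13, edgeR adjusted p = 0.0203) and PCNA (-0.44 ± 0.12, edgeR adjusted p = 0.0284). The replication genes did not all move down, with log2 changes from -0.63 to 0.68. At an unadjusted p under 0.05, 13 of them were lower and 2 higher. The number called higher was 1 at an adjusted p threshold of 0.10 and 1 without tumour 13. Of 36 mitosis genes 14 fell and 0 rose (median -0.35), led by KIF20A (-0.72 ± 0.12, edgeR adjusted p = 0.00329), MAD2L1 (-0.54 ± 0.11, edgeR adjusted p = 0.00865), CCNA2 (-0.56 ± 0.12, edgeR adjusted p = 0.00865) and CENPA (-0.53 ± 0.12, edgeR adjusted p = 0.0117). The replication genes summed to 1933 to 2293 CPM with MSC and 2251 to 2633 without, and the mitosis genes to 3127 to 3720.4 CPM with MSC and 3803 to 4754 without. Of these counts of lower genes at an adjusted p under 0.05, that of the mitosis genes was 4 without tumour 9 or 12. It was 6 without 10, 8 without 1 and 9 without 6. That of the replication genes was 1 without tumour 12, 2 without 1, 9, 10 or 11, 4 without 15 and 5 without 6. In base excision repair it was 0 without tumour 12, 2 without 1, 9 or 10, 3 without 6 or 15 and 9 without 13. The part of cell cycle activity in the change of the 33 genes was not tested.

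**Figure D5:**
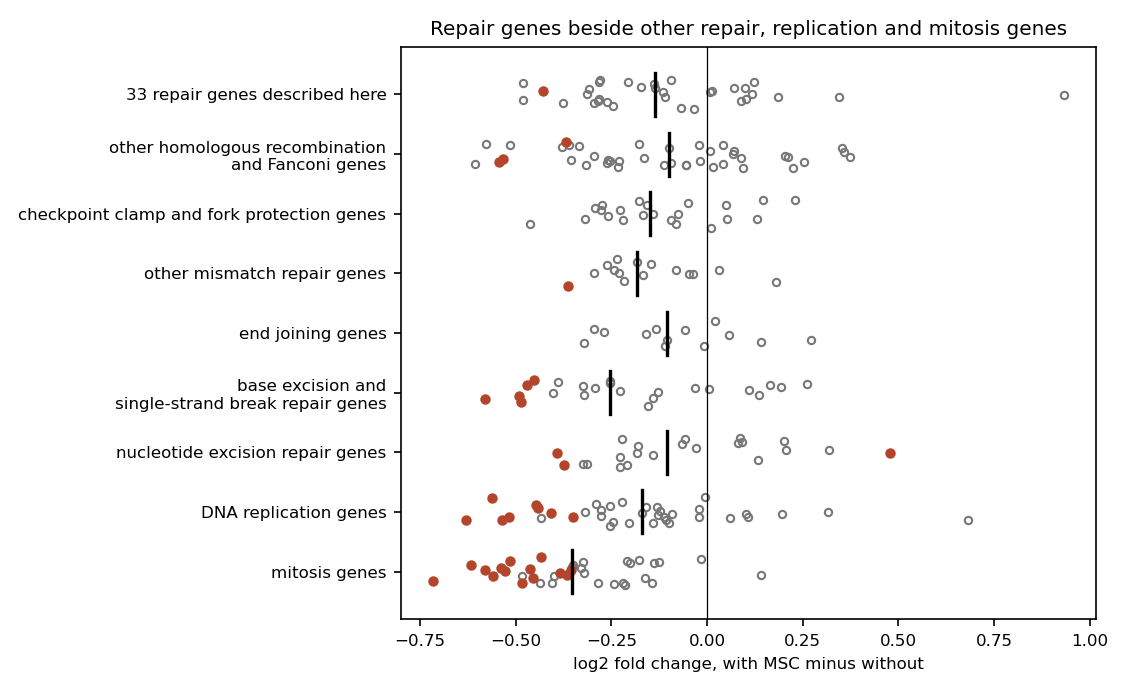
Log2 fold change (x axis, with MSC minus without) of the tested genes of each list, 1 point a gene, filled red where adjusted p was under 0.05; the black line is the list median. The 33 genes have 1 red point and a median of -0.14, beside 14 red points and a median of -0.35 for the mitosis genes.

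The 33 genes are long and poor in G and C. Their median GC content was 41.9% and their median transcript length 4592 bases, beside 48.5% and 3388 bases over the 12875 tested genes with a match in GENCODE 29 (95.7%). Changes over all genes followed GC content: from the lowest to the highest quartile of GC the median log2 change was -0.093, -0.064, 0.032 and 0.17. Of the 33 genes, 17 lay in the lowest quartile (median -0.14) and 10 in the next (median -0.23), and both medians were below those of all genes in the quartile. After a correction of each library for GC content and length, the median was -0.19 for the 33 and -0.055 for all genes. With it 2 genes passed, MSH6 (log2 change -0.44, edgeR adjusted p = 0.0375) and FANCG (-0.42, edgeR adjusted p = 0.0480), and all genes split into 343 higher and 503 lower, in place of 563 and 484.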

How the data were processed

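For each tumour the authors deposited raw counts by gene symbol, without normalization. The submitters' processing notes name HTSeq, TopHat 1.4.0 and CASAVA 1.8.1, and build hg19. Annotation, counting settings, use of strand and any removal of mouse reads are not stated there. Reads assigned to no gene, 10.2 to 12.1% of all counts in a library, were left out. No 2 replicates agreed within sampling noise (smallest chi-square per degree of freedom 23.8).

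Counts were fitted with edgeR 4.0.16 in R 4.3.3 (filterByExpr, TMM factors, glmQLFit with robust=TRUE, all 9 tumours). SE is the log2 change divided by the square root of F, and the 95% interval uses the degrees of freedom of the same test. Replicates are tumours of different mice. The labels name no batch. The 33 genes and all lists were chosen with earlier results of these data known. Every one of the 33 is reported. Values of each tumour are given for the 12 of smallest p and for BRCA1, BRCA2 and ATM. From each other list the change is given for up to 4 called genes of smallest p, or for the 1 of smallest p where none was called. PARP1 and the single marker genes were named after their values were seen. Transcript length, GC content and overlaps came from GENCODE 29, by symbol. Tested on simulated counts of this comparison, over 13251 genes, the fit recovered 30 of 67 genes at 1.5-fold, 53 of 67 at 2-fold and 61 of 66 at 4-fold, with 8 calls among the unchanged. Alternatives were DESeq2 1.42.0, limma-voom (limma 3.58.1), other scalings, filters and thresholds, thinning, a correction for GC content and length (splines with 4 degrees of freedom each, on log2 CPM with a prior count of 2), and leaving out tumours.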

Additional observations from a re-analysis of the deposited data

Results flagged for a closer look

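A sample far from the others of its group, by Dixon's test at the 95% level, was found in 12 of 200 groups of values examined (the 33 genes, every other gene named with its level or change, and the summed lists), where chance gives about 1 in 20. None of the 33 genes was singled out by itself. The summed level of FANCD2, FANCI and BRIP1 was 65.2 CPM in tumour 15 with MSC, and 52.0 to 54.4 CPM in the other 4 with MSC.

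The remaining 11 were markers. In tumour 15 with MSC, COL3A1 was 21.2 CPM (at most 1.55 in the others with MSC), DCN 18.9 (at most 0.0806), COL1A2 8.45 (at most 2.64) and PGR 0.0571 (0 in the others). The summed adipocyte markers were 5.17 CPM in the same tumour and 0.264 to 0.789 in the others with MSC. Elsewhere with MSC, PTPRC was 3.58 CPM in tumour 1 (at most 0.543 in the others), ESR1 0.208 in tumour 7 (at most 0.0571) and CDH1 0.0202 in tumour 10 (0 in the others). Without MSC, AXL was 387.9 CPM in tumour 13 (at most 297.7 in the others) and COL1A2 0.699 in tumour 9 (at most 0.556). The summed fibroblast and MSC markers were 707.6 CPM in tumour 13 without MSC and 552.2 to 578.4 in the others without.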

How the results depend on the processing

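No paired analysis was possible because the groups share no replicate numbers. No setting called any of the 33 genes higher. The count of lower genes was 1 in the analysis reported, 2 with no filter, 2 with DESeq2, 2 with the correction for GC content and length, 4 at an adjusted p threshold of 0.10, and 0 without tumour 15 with MSC and tumour 12 without MSC together. Leaving out 1 tumour gave 0 to 4: 0 without tumours 1, 10, 9 or 12, 2 without 11 and 4 without 13. The median over the 33 kept its sign in every setting, from -0.12 to -0.19. The median deviation of the 33 genes in each tumour had an SD of 0.063 over the 9 tumours. That SD spans both groups and does not measure the error of the median change. MSH6 kept its direction in all settings and lost its call only in the 4 fits named above and without tumours 15 and 12 together (log2 change -0.36, edgeR adjusted p = 0.145).

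The correction for GC content and length gave 343 higher and 503 lower genes over all, and scaling by library size only gave 389 and 412. In these 2 settings lower genes outnumbered higher ones. Otherwise the counts of all genes higher and all genes lower were 563 higher and 484 lower, 859 and 778 with DESeq2, 956 and 888 at 0.10, 394 and 293 with limma-voom, 201 and 101 without tumours 15 and 12 together, and 151 to 985 and 94 to 863 when 1 tumour was left out. Depth limits BARD1, with 10 counts in 1 library. The causes were not tested.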
